A study of Mus musculus with 2 samples.

Results

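The genes described here are 8 markers used to follow skeletal stem and progenitor cells, Dpp4, Pi16, Ly6a, Cd34, Pgr, Prrx1, Gli1 and Scx, out of 32285 genes counted. They were taken by symbol, whatever their level, and all 8 were detected in both libraries. They were followed in single-nucleus RNAseq of 2 mouse libraries. The first was made at day 1 post-fracture from periosteum with its hematoma, and the second at day 5 post-MTI from periosteum with callus. The fracture was an open, non-stabilized cut through the tibia, and MTI (musculoskeletal traumatic injury) was the same fracture with crushing of the surrounding leg muscles. All animals were labelled C57BL6 and carried no other allele or agent, and the study's methods give 10 to 14 weeks as the age at bone injury, with males and females mixed. Each library pooled the nuclei of 3 or 4 mice, sorted on the DNA dye Sytox-AAD. Time and kind of injury both change from one library to the other and cannot be told apart, so the libraries were not compared. Within a library, nuclei are not replicates, so no p-value is given, and each interval below is a 95% interval for counting error only. These intervals treat UMIs (unique molecular identifiers, 1 for each captured RNA molecule) as independent, although several UMIs often came from the same nucleus.

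Long bones heal from stem and progenitor cells of the periosteum, the thin layer that covers them, which pass through a fibrogenic stage before they make cartilage or bone. The 4 surface or secreted markers mark uncommitted stromal cells in several tissues. Dpp4 encodes the cell-surface peptidase CD26, Pi16 a protein known for labelling fibroblasts of the vessel adventitia, Ly6a the stem cell antigen Sca-1, and Cd34 a sialomucin that endothelial and blood progenitor cells carry as well. The other 4 encode regulators of transcription. Pgr is the progesterone receptor, Prrx1 the homeobox factor of limb bud mesenchyme, Gli1 both an effector and a target of Hedgehog signalling, and Scx the helix-loop-helix factor of tendon progenitors.

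The genes differ in how well this assay can count them. In mm10 coordinates, Dpp4 (ENSMUSG00000035000, 28 merged exons) spans chr2:62330073-62412231, Pgr (ENSMUSG00000031870, 8 merged exons) chr9:8899833-8968611 and Prrx1 (ENSMUSG00000026586, 7 merged exons) chr1:163245119-163313710, and these 3 long genes offer many intronic reads. Cd34 (ENSMUSG00000016494) lies at chr1:194938819-194961279, Pi16 (ENSMUSG00000024011) at chr17:29317680-29330593 and Gli1 (ENSMUSG00000025407) at chr10:127329882-127341974. Ly6a (ENSMUSG00000075602) lies at chr15:74994877-74998031 among near-identical family members, which makes its counts uncertain. Scx (ENSMUSG00000034161, 1 merged exon) lies at chr15:76457452-76459458, where Bop1 overlaps it on the opposite strand, and only 5 of its UMIs were found in the 1127 nuclei kept after MTI. Counted genes also overlap Dpp4, Pi16, Cd34, Prrx1 and Gli1, in each case on the opposite strand.

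Dpp4, Cd34 and Pgr were found together in a handful of nuclei described below, so the 250 bases before the RefSeq start of each are shown here (GRCm38.p6, 5′ to 3′ on the strand of the gene). They lie at chr2:62412232-62412481 (minus strand) for Dpp4, chr1:194938571-194938820 (plus strand) for Cd34 and chr9:8899583-8899832 (plus strand) for Pgr. Capitals mark TATAAA or GGGCGG on either strand, and the 2 motifs share no match.
Dpp4: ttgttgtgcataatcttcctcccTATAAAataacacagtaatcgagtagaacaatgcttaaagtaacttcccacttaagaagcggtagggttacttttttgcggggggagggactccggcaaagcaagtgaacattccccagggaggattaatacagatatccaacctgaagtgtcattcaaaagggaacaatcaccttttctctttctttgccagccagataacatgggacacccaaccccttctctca
Cd34: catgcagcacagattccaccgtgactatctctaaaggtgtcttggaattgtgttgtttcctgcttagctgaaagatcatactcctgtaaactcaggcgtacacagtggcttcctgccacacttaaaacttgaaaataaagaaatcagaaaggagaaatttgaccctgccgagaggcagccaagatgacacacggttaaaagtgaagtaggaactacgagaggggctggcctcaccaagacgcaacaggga
Pgr: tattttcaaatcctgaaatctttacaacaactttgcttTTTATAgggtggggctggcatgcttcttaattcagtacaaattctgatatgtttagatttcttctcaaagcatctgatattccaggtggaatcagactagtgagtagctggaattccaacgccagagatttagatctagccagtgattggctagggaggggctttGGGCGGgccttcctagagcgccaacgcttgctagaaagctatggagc
TATAAA began 227 bases before the start of Dpp4 and stood on the opposite strand of Pgr, 212 bases before its start. GGGCGG began 47 bases before the start of Pgr. TATAAA was in 12.4% and GGGCGG in 32.7% of the 32851 windows of this length in the same table. Neither was in the window of Cd34, nor in those of Pi16 and Prrx1. The table holds 5 of the 8 genes, without Ly6a, Gli1 and Scx. These matches describe letters only.

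The filters of the study's methods kept 2405 of 48987 barcodes at day 1 (median 409 UMIs) and 1127 of 1446 after MTI (median 2364 UMIs). The study reports fewer nuclei for both libraries, after filtering and removal of myogenic cells. Myogenic nuclei were kept here, and their part in these differences was not tested. The retained nuclei were clustered without the 8 genes among the variable genes, and clusters were called "X-like" from markers that do not include them. After MTI this gave 13 populations, 1 of them skeletal lineage-like with 186 nuclei. For this name, 12 skeletal lineage markers, such as Pdgfra, Col1a1 and Postn, were pooled with the markers of chondrocytes, osteoblasts and tenocytes. All 12 were found, as were all 8 of chondrocytes and all 8 of osteoblasts. The name was thus made to cover differentiating nuclei. This population summed 743 UMIs of the 8 pericyte or smooth muscle markers. At day 1, 74 nuclei were skeletal lineage-like and 1791 stayed unnamed. The 2 libraries shared 33 barcodes, of which 15 were among retained nuclei.

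Prrx1 was by far the best detected of the 8 genes after MTI and followed the skeletal lineage-like nuclei. It gave 1120 UMIs in 195 nuclei, against 128 in 45 for Dpp4, 61 in 35 for Cd34, 29 in 20 for Pi16, 26 in 15 for Gli1, 25 in 19 for Ly6a, 20 in 8 for Pgr and 5 in 4 for Scx. Per kilobase of gene, the level over all retained nuclei, in CPM (UMIs of the gene per 1000000 UMIs), was 3.76 for Prrx1, 1.83 for Ly6a, 0.626 for Cd34, 0.574 for Scx, 0.518 for Pi16, 0.496 for Gli1, 0.359 for Dpp4 and 0.067 for Pgr. Of all UMIs of each gene, most of those of Prrx1, Pgr and Gli1 lay in the skeletal lineage-like nuclei, and most of those of Dpp4, Pi16, Ly6a, Cd34 and Scx lay elsewhere.

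**Figure D1:**
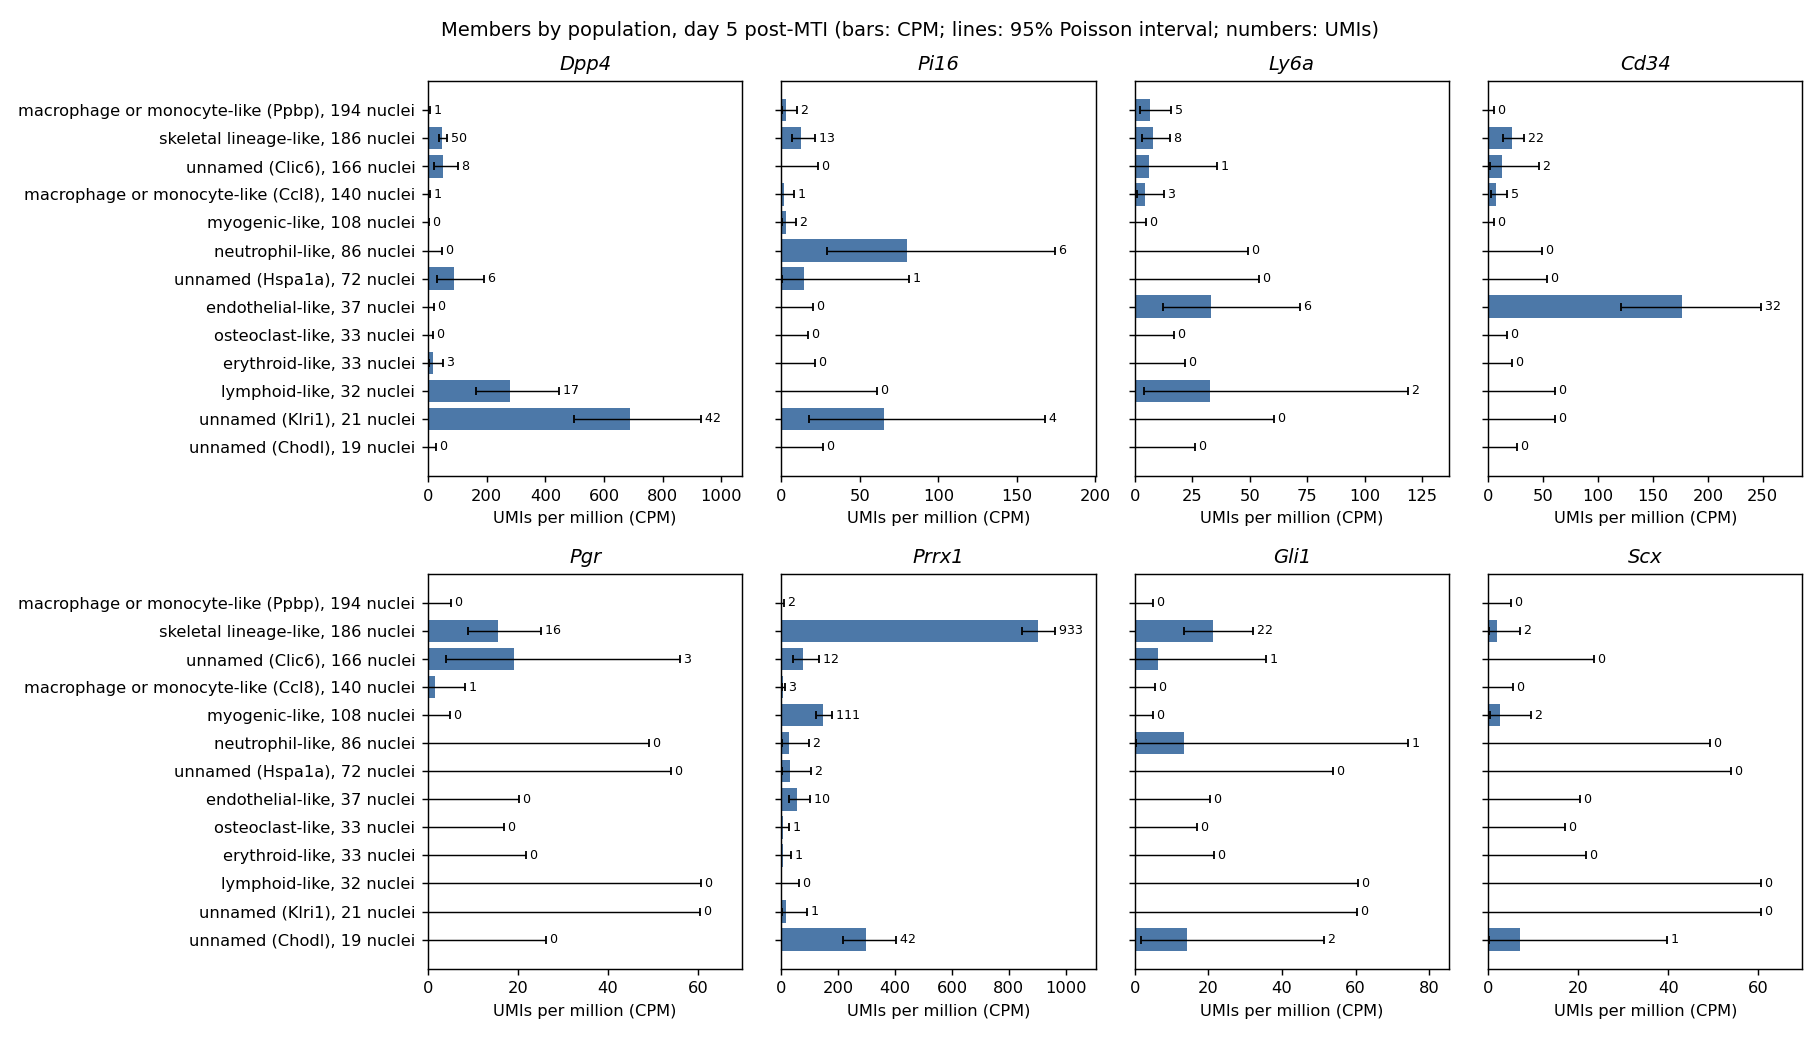
Level of each gene in the 13 populations of the day 5 post-MTI library. Bars give CPM on a linear axis scaled for each gene, lines the 95% Poisson interval and numbers the UMIs. Prrx1 is highest in the skeletal lineage-like nuclei, as is Gli1 short of a resolved step, Dpp4 in the Klri1-led cluster, Cd34 in endothelial-like and Pi16 in neutrophil-like nuclei, the last not resolved from the Klri1-led cluster.

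Prrx1 was at 901.5 CPM (844.6 to 961.2) in the skeletal lineage-like nuclei, with at least 1 UMI in 128 of 186. The next level was 298.6 CPM in 19 nuclei of an unnamed cluster led by Chodl, Dcx and Pax7, the last a marker of muscle satellite cells. Myogenic-like nuclei followed at 146.4 CPM and an unnamed cluster led by Clic6 at 76.65 CPM, and each of these 3 steps had a ratio interval that left out 1. Below them no step was resolved, and 9 of the 10 UMIs of the endothelial-like nuclei came from 1 nucleus. After each nucleus was thinned to 500 UMIs, Prrx1 was found in 28.5% of skeletal lineage-like nuclei (22.1 to 35.6), against 68.8% at full depth. Thinned shares were 15.8% in the Chodl-led cluster, 6.48% in myogenic-like nuclei and 0.714% in 1 macrophage or monocyte-like population (led by Ccl8, Cd4 and Fcrls), a type that should lack the gene, whose median depth was 4511 UMIs against 3401.5 in the skeletal lineage-like nuclei.

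Gli1 was lower but had the same leading population. It was at 21.26 CPM (13.32 to 32.18) in the skeletal lineage-like nuclei, from 22 UMIs in 11 nuclei, of which 8 were in 1 nucleus. Outside them it was found as 4 UMIs in 3 populations, and the step to the next of these, the Chodl-led cluster at 14.22 CPM, was not resolved (ratio 1.495, 0.3675 to 13.11). Scx gave 2 UMIs in skeletal lineage-like, 2 in myogenic-like and 1 in Chodl-led nuclei, so no order can be read for it.

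Dpp4 was highest outside the skeletal lineage. Its top level was 688.9 CPM (496.5 to 931.1) in 21 nuclei of an unnamed cluster led by Klri1, from 42 UMIs in 11 nuclei. These nuclei carried the pan-leukocyte gene Ptprc (in 20 nuclei), the antigen presentation genes H2-Eb1 (81 UMIs in 19 nuclei) and Ciita (67 UMIs in 18 nuclei), and Flt3 (21 UMIs in 11 nuclei), a receptor of dendritic cell progenitors. Among other genes read there, Zbtb46 gave 19 UMIs in 6 nuclei, Klrd1 gave 18 UMIs in 9 nuclei and Xcr1 gave none. Of 10 macrophage or monocyte markers 9 were found, with 140 UMIs. Their level of 2296 CPM was close to the 2298 CPM over all 941 nuclei that were not skeletal lineage-like. The type of these nuclei was not settled. Lymphoid-like nuclei came next with 279.7 CPM, from 17 UMIs in 11 of 32 nuclei. CD26 is also known on the surface of T cells. Both steps, from the Klri1-led cluster to lymphoid-like (ratio 2.463, 1.372 to 4.614) and on to the next population (3.186, 1.198 to 9.868), left out 1. Skeletal lineage-like nuclei were lower again, at 48.31 CPM (35.86 to 63.69), 14.26-fold below the Klri1-led cluster (9.23 to 21.93).

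Cd34 was highest in endothelial-like nuclei, at 176.2 CPM (120.5 to 248.8) from 32 UMIs in 15 of 37 nuclei. This was 8.29-fold the skeletal lineage-like level of 21.26 CPM (4.669 to 14.97). Ly6a, which endothelial cells of mice are also known to express, was at 33.04 CPM in the same nuclei from 6 UMIs, 4.274-fold its skeletal lineage-like level of 7.73 CPM (1.222 to 14.05). Lymphoid-like nuclei were at a like level, 32.91 CPM from 2 UMIs. Pi16 was at 79.99 CPM in neutrophil-like nuclei, from 6 UMIs in 6 of 86 nuclei, 6.368-fold its skeletal lineage-like level of 12.56 CPM (1.985 to 17.96). These nuclei were shallow (median 737.5 UMIs), and the MTI library holds no barcode under 500 UMIs, so its free RNA was not measured and these single UMIs cannot be told apart from it. After thinning, Pi16 was found in 4.65% of neutrophil-like (1.28 to 11.5) and 0.516% of Ppbp-led macrophage or monocyte-like nuclei (0.0131 to 2.84), whose median depth was 3139 UMIs. Its 65.6 CPM in the Klri1-led cluster came from 4 UMIs of a single nucleus. Pgr was at 15.46 CPM in skeletal lineage-like nuclei and at 19.16 CPM, from 3 UMIs, in the Clic6-led cluster, whose nuclei had a median of only 687 UMIs, and these levels did not differ beyond counting error (ratio 1.24, 0.2315 to 4.331).

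By the likeness of their levels over the 13 populations (Pearson r of log2(CPM + 10), 9543 genes compared), the genes closest to Prrx1 were Rbms3 (r = 0.971), Mir100hg (0.95) and Mid1 (0.948), and to Gli1 they were Arsj (0.959), Kcnt2 (0.934) and Pdgfrl (0.93). For Cd34 they were Hoxb6 (0.973), Tm4sf1 (0.956) and Lims2 (0.956), all highest in endothelial-like nuclei. For Dpp4 they were Kmo (0.919), Grap2 (0.907) and the class II gene H2-Eb1 (0.892). For Ly6a they were Cers4 (0.941), Gimap8 (0.912) and Ube2z (0.901), and for Pi16 Cnnm2 (0.884), Fam50a (0.848) and Cd300ld (0.838), the latter 3 highest in neutrophil-like nuclei. For Pgr they were Pamr1 (0.996), Trpc6 (0.989) and Rspo2 (0.982). These 13 points share 1 library and differ in depth, and Pgr is at 0 in 10 of them, so the values are descriptions only.

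Set against the other 941 nuclei of the MTI library together, myogenic-like nuclei included, 5 of the 8 genes were higher in the skeletal lineage-like nuclei. A gene was counted as higher or lower when its CPM ratio was at least 2 or at most 0.5 and the interval left out 1, which held in 14.5% (higher) and 19.9% (lower) of 12746 genes. Prrx1 was at 901.5 against 56.63 CPM (ratio 15.92, 13.59 to 18.73). Gli1 followed at 21.26 against 1.211 CPM (17.55, 5.96 to 70.05) and Pgr at 15.46 against 1.211 CPM (12.76, 4.117 to 52.46). Pi16 (2.593, 1.147 to 5.749) and Dpp4 (2.045, 1.405 to 2.955) passed narrowly. Cd34 had a ratio of 1.8 (1.016 to 3.112), Ly6a of 1.502 (0.5609 to 3.671) and Scx of 2.127 (0.1777 to 18.57), and these 3 did not pass.

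**Figure D2:**
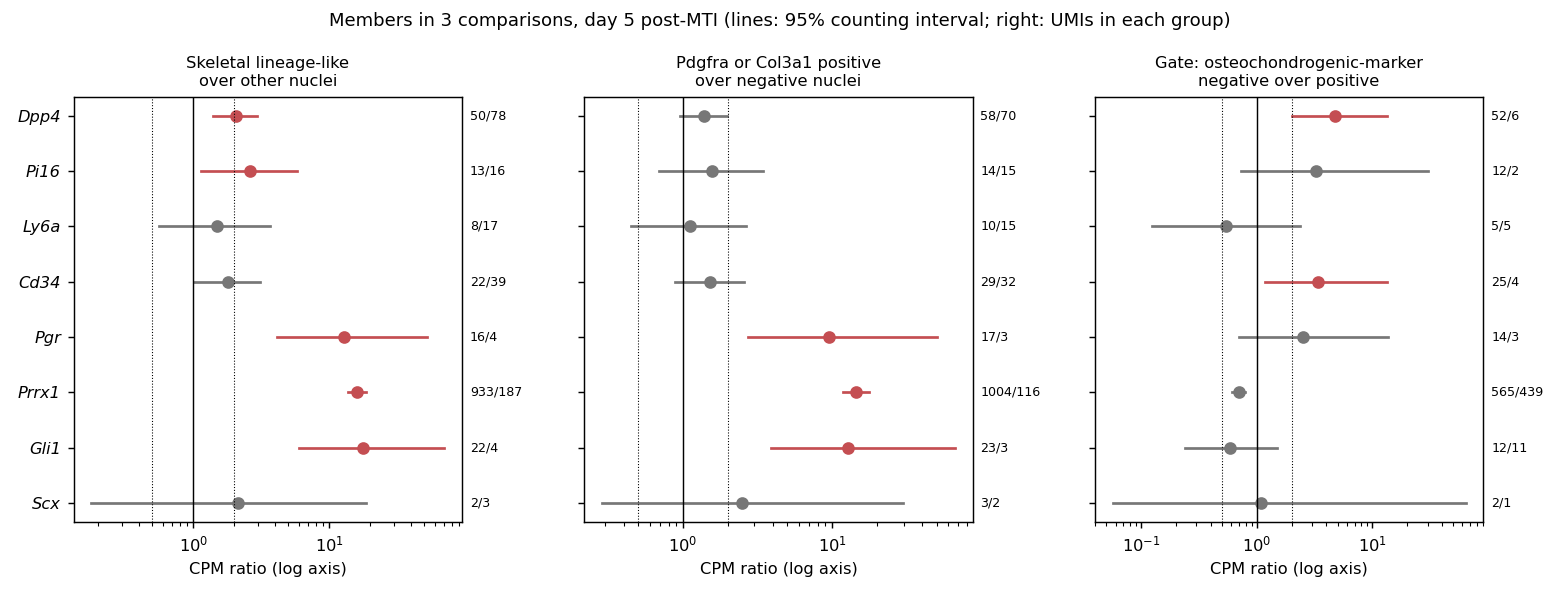
CPM ratios of the 8 genes in 3 comparisons within the day 5 post-MTI library, on a log axis. Points are ratios, lines 95% counting intervals, dotted lines ratios of 2 and 0.5, and the numbers at the right UMIs in each group. Red points passed: 5 genes in the left panel, 3 in the middle and 2 in the right, where Prrx1 lies below 1.

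Other genes of the same pathways showed how far this pattern is general. They took part in the clustering, so their counts against the other nuclei are descriptions. All osteochondrogenic genes, most fibrogenic matrix genes and several tendon genes, Mkx and Thbs4 among them, were also markers that named the group. Higher levels of those genes thus follow in part from the naming. Among Hedgehog pathway genes, 6 of 8 with enough UMIs were higher in the skeletal lineage-like nuclei (median ratio 4.98, against 0.904 over all genes). The receptor Ptch1 was at 173.9 against 33.61 CPM, Smo at 117.9 against 31.19 CPM and the transcription factor Gli3 at 528.5 against 52.99 CPM. All 7 tendon genes were higher, among them Mkx (115.9 against 4.239 CPM) and Thbs4 (281.2 against 5.148 CPM), although Scx itself was almost absent. Of the limb mesenchyme factors 7 of 8 were higher, such as Tbx15 (585.5 against 165.6 CPM).

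Of the fibroblast genes listed as companions of Dpp4 and Pi16 in vessel adventitia, 9 of 14 were higher and Limch1 was lower. Col14a1 was at 299.5 against 19.38 CPM and Creb5 at 503.4 against 173.5 CPM. Of the steroid receptors and their partners, 3 of 8 were higher and 1 lower, and the estrogen receptor Esr1 was at 120.8 against 159.6 CPM (ratio 0.7568). Of 18 other genes used as skeletal stem cell markers, 8 were higher and 3 lower. Cxcl12 was at 56.04 against 9.387 CPM, while Ctsk, which osteoclasts express at a high level, was at 22.22 against 128.4 CPM and Lepr was found as 5 UMIs. All 12 fibrogenic matrix genes, among them Postn (1792 against 34.82 CPM), and all 7 osteochondrogenic genes with enough UMIs were higher. Most of these genes, Postn included, had helped to name the group.

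Within the skeletal lineage-like nuclei, Dpp4, and less so Pi16 and Cd34, were concentrated in 4 nuclei, which also held all Pgr UMIs. These 4 were singled out after their values were seen, as the skeletal lineage-like nuclei with a Pgr UMI, so the values that follow are a description. They had 1547, 5779, 6927 and 9283 UMIs in all, with 3, 1, 3 and 9 Pgr UMIs. In the same order they held 4, 5, 14 and 19 UMIs of Dpp4, 2, 5, 4 and 2 of Cd34, and 0, 2, 4 and 1 of Pi16. Every one of the 4 thus carried Dpp4 and Cd34, and 3 of them carried all 4 genes. Prrx1 was present as 1, 8, 3 and 11 UMIs, and Ly6a, Gli1 and Scx were at 0 in each.

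These 4 nuclei held 2.27% of the UMIs of the population, but 84.0% of its Dpp4 (42 of 50), 59.1% of its Cd34 (13 of 22), 53.8% of its Pi16 (7 of 13) and, by their choice, all 16 Pgr UMIs. Dpp4 was at 1785 CPM in them against 7.91 CPM in the other 182 nuclei (ratio 225.6, 104.6 to 556.4). Cd34 was at 552.3 against 8.898 CPM (62.07, 24.55 to 164.5) and Pi16 at 297.4 against 5.932 CPM (50.14, 14.43 to 180.6). Prrx1 did not follow them, with 977.2 against 899.7 CPM (1.086, 0.685 to 1.64), and 2.47% of its UMIs. In the other 182 nuclei, Dpp4 was still found in 7, Cd34 in 9 and Pi16 in 4. Of all 1127 retained nuclei, 1032 held none of the 4 genes, 89 held 1, 2 held 2, 1 held 3 and 3 held all 4, and the nuclei with 3 or more were those described here.

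**Figure D3:**
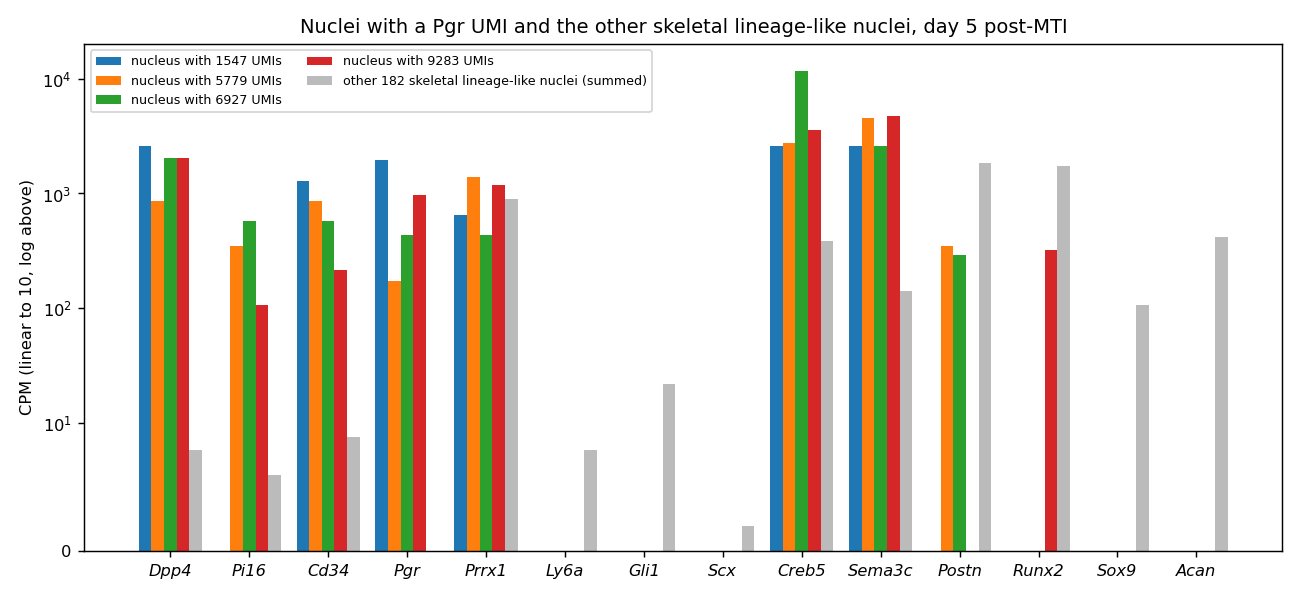
Level of 14 genes in each of the 4 skeletal lineage-like nuclei with a Pgr UMI (coloured bars) and summed over the other 182 (grey bars), in CPM on an axis that is linear to 10 and logarithmic above. Dpp4 and Cd34 stand far above the grey bar in all 4 nuclei, Prrx1 stands near it, and Ly6a, Gli1, Scx, Sox9 and Acan are at 0 in the 4.

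Among the adventitial companion genes, the same 4 nuclei were high in Sema3c (4, 26, 18 and 44 UMIs, 3909 against 142.4 CPM), a semaphorin, and in Creb5 (4, 16, 81 and 33 UMIs, 5693 against 382.6 CPM), a transcription factor. Cd55, which encodes a complement regulator, was at 849.8 against 22.74 CPM, Anxa3 at 1530 against 110.7 CPM and Col14a1 at 1530 against 270.9 CPM. Ackr3 (ratio 12.28, 5.884 to 23.76), Dpt (7.584, 1.424 to 26.22) and Mfap5 (3.07, 1.372 to 6.015) were also higher. Efhd1 and Wnt2 passed as well, but from 3 and 2 UMIs in these nuclei. The remaining genes of this list did not pass. Gsn was at 42.49 against 107.8 CPM and Fbn1 had a ratio of 1.698, while Col15a1, Has1 and Igfbp6 gave no UMI in these nuclei. The genes with the highest ratios, read after the nuclei were chosen, were Pla1a (594.8 against 4.944 CPM), Lvrn (552.3 against 6.921 CPM) and Tek (424.9 against 7.91 CPM). Esr1 was at 679.8 against 107.8 CPM, from 16 UMIs in 3 of them.

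Of the 12 fibrogenic matrix genes, 10 were lower in these nuclei, 1 was higher and Fn1 did not pass (0.8552, 0.6196 to 1.152). No share over all genes is given for this comparison, so the count describes these genes only. Postn, a matrix gene of injury-induced fibrogenic cells, was at 170 against 1830 CPM, whereas Col3a1 was higher, at 6373 against 2680 CPM (2.378, 2.004 to 2.803), with 3, 49, 37 and 61 UMIs. The osteogenic factor Runx2 was at 127.5 against 1743 CPM. Of the Hedgehog genes none passed. Ptch1 was found as 2 UMIs (ratio 0.4828, 0.05803 to 1.77), Gli3 as 6 (0.4766, 0.1741 to 1.044) and Gli2 as 0, so no difference can be read for them. All markers of chondrocytes, tenocytes, endothelial cells, lymphoid cells, osteoclasts, adipocytes and muscle were at 0. Of 8 osteoblast markers 2 were found, with 4 UMIs (3 of Runx2 and 1 of Alpl), and of 6 Schwann cell markers 2, also with 4 UMIs. By its Alpl UMI, 1 of these nuclei belongs to the nuclei with an osteochondrogenic marker in the split described below. Of the 8 pericyte or smooth muscle markers, 5 were at 0 (Mylk, Myh11, Rgs5, Notch3 and Kcnj8) and the rest summed to 3 UMIs. Of 10 macrophage or monocyte markers 2 were found, with 4 UMIs.

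Most of what Dpp4 showed in the skeletal lineage-like nuclei rested on these 4. Without them, and without the 1 further Pgr-positive nucleus of the Pdgfra or Col3a1 positive set, its ratio over the other nuclei turned to 0.335, and the genes past the threshold went from 5 higher to 2 higher and 1 lower. All Dpp4 UMIs that this leave-out removed lay in the skeletal lineage-like nuclei, so the fall followed from the choice of nuclei. No lower level of Dpp4 can be read from it. At a finer clustering (resolution 2.0) the 4 nuclei moved to a cluster of 75 nuclei that carried the pericyte or smooth muscle-like name, and the Dpp4 ratio was 0.16. At a mitochondrial limit of 0.5% only 1 of the 4 remained, and the Dpp4 ratio was 2.09. With each nucleus named by its own marker share, the ratio was 1.04 for Dpp4 and Pgr no longer passed.

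A set of nuclei that may hold progenitor and fibrogenic cells was taken by a UMI of Pdgfra, a receptor of mesenchymal progenitors, or Col3a1, a fibrillar collagen, which is not a rule of the study. Of the 1127 nuclei after MTI, 325 were positive. Of these 162 (49.8%) were skeletal lineage-like, which is 87.1% of that population (both genes are among the markers that named it). The others came from all 12 other populations, with 73.7% of the Chodl-led cluster and 9.09% to 22.2% of the rest. After thinning to 500 UMIs, 57.0% of the skeletal lineage-like nuclei and between 0% and 15.8% of each other population were positive. The positive set therefore held nuclei of other populations, whose part in the values below was not tested beyond the restriction to the skeletal lineage-like nuclei.

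In the positive nuclei, 3 of the 8 genes were higher than in the 802 negative nuclei, where 11.7% of 12746 genes were higher and 11.0% lower. Prrx1 was at 616.8 against 42.81 CPM (ratio 14.41, 11.88 to 17.62) and was found in 145 of 325 against 50 of 802 nuclei. Gli1 was at 14.13 against 1.107 CPM (12.76, 3.856 to 66.4) and Pgr at 10.44 against 1.107 CPM (9.434, 2.729 to 50.25). Dpp4 (1.379, 0.9569 to 1.982), Pi16 (1.554, 0.6949 to 3.453), Cd34 (1.509, 0.8806 to 2.575), Ly6a (1.11, 0.4459 to 2.641) and Scx (2.497, 0.2861 to 29.9) were not told apart between positive and negative nuclei. Without the Pgr-positive nuclei of the positive set, the Dpp4 ratio was 0.386, and Prrx1 and Gli1 remained higher. This leave-out took nuclei from the positive group only, chosen after their values were seen, with 42 of its 58 Dpp4 UMIs. The fall of the Dpp4 ratio thus followed from the choice, and no lower level of Dpp4 can be read from it. Of the listed genes, 7 of 8 Hedgehog genes (median ratio 5.49), 7 of 7 tendon genes (15.5), 8 of 8 limb mesenchyme factors (5.32) and 7 of 14 adventitial companion genes (2.08) were higher, against a median of 0.969 over all genes. Where Pdgfra alone was asked for, 84 nuclei were positive and 6 genes were higher.

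Few of the positive nuclei held more than 1 of the markers. Of the 325 nuclei, 163 (50.2%) held none of the 8 genes, 129 held 1, 25 held 2, 3 held 3, 2 held 4 and 3 held 5. Dpp4 was found in 15 nuclei, Cd34 in 16, Gli1 in 12, Pi16 in 8, Ly6a in 7, Pgr in 5 and Scx in 3. No nucleus with Gli1 held Dpp4, Pi16, Ly6a or Pgr, and 1 of the 12 held Cd34. Such absences say little at these numbers, since the upper limit of the CPM ratio of nuclei with over without Gli1 was 4.127 for Pi16, 6.108 for Ly6a and 3.318 for Pgr. For Dpp4 it was 0.899, but 42 of its 58 UMIs lay in 4 nuclei and only 15 of the 325 nuclei held it. No nucleus held Ly6a together with Dpp4 or Pgr, with upper limits for Ly6a of 9.437 in the nuclei with Dpp4 and 29.65 in those with Pgr.

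The nuclei were next split by whether they held a UMI of any osteochondrogenic marker (Acan, Col2a1, Sox9, Fgfr3, Sp7, Alpl, Ibsp, Ifitm5 or Bglap). This is only a rough measure of differentiation, since the 2 groups also differed in cell type. Skeletal lineage-like nuclei made up 57 of the 78 nuclei with a marker and 105 of the 247 without. Macrophage or monocyte markers were at 206.2 CPM in the nuclei with a marker and 1228 CPM in those without. The 78 with a marker were deeper (median 6002.5 UMIs) than the 247 without (2887). Dpp4 and Cd34 were higher in the marker-negative nuclei, where 11.1% of 9278 genes were higher and 5.99% lower. Dpp4 was at 49.27 against 10.49 CPM (ratio 4.698, 2.019 to 13.39) and Cd34 at 23.69 against 6.991 CPM (3.388, 1.17 to 13.39). Pi16 (3.252, 0.7241 to 29.92) and Pgr (2.53, 0.706 to 13.73) did not pass. Both calls were lost with groups set on nuclei thinned to 500 UMIs (Dpp4 1.45, Cd34 1.21, and Pgr turned to 0.628), with the mean CPM of each nucleus (Dpp4 1.14, Cd34 1.04), at a mitochondrial limit of 0.5% (Dpp4 0.623, Cd34 0.801) and without the Pgr-positive nuclei (both 3.87, from 14 against 2 UMIs). The ratios were larger where both Pdgfra and Col3a1 were asked for (Dpp4 36.1 from 40 against 1 UMIs, Cd34 13.5 from 15 against 1 UMIs). They were also larger with Pdgfra alone (Dpp4 33.4, Cd34 12.5). The higher level of Dpp4 and Cd34 in marker-negative nuclei thus depended on how the groups and means were made.

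Prrx1 was at 535.3 CPM in the marker-negative and 767.3 CPM in the marker-positive nuclei (0.6976, 0.6148 to 0.7921), short of the fold asked for. Its direction turned with groups set on thinned nuclei (1.39), with both Pdgfra and Col3a1 (1.2), with Pdgfra alone (1.11) and in skeletal lineage-like nuclei only (1.17). Gli1 had a ratio of 0.5913 (0.2389 to 1.479). In the same split, Hedgehog genes had a median ratio of 0.782 (Ptch1 0.2483, lower), tendon genes 0.629 with 3 of 7 lower, and fibrogenic matrix genes 0.579 with 5 of 12 lower (Postn 0.3719), against 1.08 over all genes. Of the adventitial companion genes 2 of 14 were higher and 2 lower.

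When the skeletal lineage-like nuclei were divided by a second clustering, 82 nuclei (median 1374 UMIs) and 104 nuclei (median 7979.5 UMIs) were found. Other genes than the 8 made this division. Dpp4 was at 322.1 against 3.374 CPM (ratio 95.44, 30.72 to 479.4), Cd34 at 102.8 against 7.874 CPM (13.05, 5.01 to 37.85), Pi16 at 61.67 against 4.499 CPM (13.71, 3.826 to 60.91), and Pgr at 109.6 CPM against 0, at least 32.49-fold higher with 3 counts set for the group at 0. The 4 nuclei described above were all among the 82 and held 42 of the 47 Dpp4, 13 of the 15 Cd34, 7 of the 9 Pi16 and all 16 Pgr UMIs. Without them the ratio was 12.11 for Dpp4 (2.355 to 77.96, from 5 against 3 UMIs), and the intervals of Cd34 (2.075, 0.2104 to 10.9) and Pi16 (3.632, 0.3285 to 25.34) included 1. Prrx1 was at 685.3 against 937.0 CPM (0.7313, 0.5883 to 0.9008) and Gli1 at 20.56 against 21.37 CPM, so neither followed the division past the fold asked for. Depth differed between the divisions, and its part was not tested.

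Nuclei chosen by a marker also differed in other genes. In the 20 positive nuclei with a UMI of Dpp4 or Pi16, against the 305 without, the genes with the highest ratios were Lvrn (43.12), Lbp (33.82), Aldh1a1 (28.18), Gm8739 (27.9), Pla1a (23.67), Lef1 (16.6), Pi15 (16.06), Efemp1 (13.41), Sema3c (13.4) and Ano3 (13.12). Several of these rested on few nuclei, with all 12 Lef1 UMIs in 1 nucleus, 17 of 20 Lbp UMIs in 1 and 39 of 50 Aldh1a1 UMIs in 1. Lvrn was found in 6 of the 20 nuclei and Sema3c in 10, but the 4 nuclei with Pgr held 13 of the 17 Lvrn, all 14 Pla1a and 92 of the 125 Sema3c UMIs. At the low end were the sarcomere genes Ttn (0 against 4621 UMIs) and Neb (ratio 0.02048), then Kcnq5 (0.02818), the cartilage collagen gene Col2a1 (0.02915) and Cdh13 (0.03636). In the 15 nuclei with a Dpp4 UMI, whichever other markers they held, 8 of 14 adventitial companion genes were higher, against 4.76% of all 9277 genes. In the same nuclei 3 of 7 osteochondrogenic genes were lower, against 4.04%. The 16 nuclei with Cd34, which share 4 with those of Dpp4, had 8 of 14 adventitial companion genes higher (5.06% of all genes) and 4 of 7 osteochondrogenic genes lower (4.85%). The 4 shared nuclei are those with Pgr, and they held 92 of the 119 Sema3c UMIs of the nuclei with Dpp4 and 92 of the 99 of those with Cd34. Without the Pgr-positive nuclei, 6 of 13 companion genes were higher in the nuclei with Dpp4 (4.17% of all genes) and 3 of 13 in those with Cd34 (4.61%). The list was not particular to these 2 markers, since 7 of 14 were also higher in the positive nuclei with Prrx1 (12.5% of all genes). The part of cell type in these counts was not tested.

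The 145 nuclei with Prrx1 were rich in matrix genes. All 12 fibrogenic matrix genes were higher in them than in the 180 without (median ratio 4.73), against 12.5% of all genes, with Postn at 6.939-fold and Tnc at 8.203-fold. Of the limb mesenchyme factors 7 of 8, of the tendon genes 6 of 7 and of the adventitial companion genes 7 of 14 were higher. Of the osteochondrogenic genes 5 of 7 were higher, and the bone sialoprotein gene Ibsp was lower (0.3251), but 119 of the 120 Ibsp UMIs in the nuclei without Prrx1 came from 1 nucleus. Without that nucleus Ibsp was higher in the nuclei with Prrx1, at 73 against 1 UMIs (38.14, 6.634 to 1527). Of these 73 UMIs, 43 came from 1 nucleus with Prrx1, which was not left out. Both directions thus rested largely on 1 nucleus. The nuclei with Prrx1 had a median of 6012 UMIs against 1891.5, and detection of Prrx1 rises with depth. Only 162 of the 325 nuclei in this split were skeletal lineage-like, the population where Prrx1 was highest. The nuclei with and without Prrx1 thus also differed in cell type, and most of the fibrogenic matrix genes had helped to name that population. The parts of depth and cell type in these values were not tested.

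The 12 nuclei with Gli1 were a mixed set of deep nuclei (median 9437.5 UMIs against 3087), 11 of them skeletal lineage-like. Ptch1, like Gli1 a Hedgehog target, was at 830.4 against 65.27 CPM (ratio 12.72, 9.473 to 17.07) and was found in 10 of the 12, with 29 and 31 of its 92 UMIs in 2 nuclei. Gli2 was at 424.2 against 60.65 CPM (6.994, 4.813 to 10.04), also in 10 of 12. The nucleus with most Gli1 (8 UMIs) held 3 Ptch1 UMIs, and without it the Ptch1 ratio was 13.46.

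Differentiation genes were divided among these nuclei. All 162 Ibsp UMIs lay in 2 of the 12 nuclei (43 and 119), which also held 3 and 43 UMIs of Alpl, a gene of mineralizing cells. Another held 68 UMIs of Col2a1 and 33 of Acan, both genes of cartilage. A further nucleus held 19 UMIs of the tendon gene Mkx with 28 of Prrx1 and 32 of Postn. Over the lists, 2 of 8 Hedgehog genes and 4 of 7 osteochondrogenic genes were higher in the nuclei with Gli1, against 5.78% higher and 5.65% lower over all genes.

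At day 1 post-fracture the library was shallow, and barcodes with fewer than 200 genes, 43464 of them, served as a measure of RNA free in the droplets. Over all 2405 retained nuclei, 7 of the 8 genes were at levels whose ratio to these barcodes had an interval that included 1. Prrx1 was at 86.51 CPM in the nuclei and 74.76 CPM in the barcodes (1.157, 0.928 to 1.431), and Dpp4 at 24.95 and 16.94 CPM (1.473, 0.9516 to 2.217). The exception was Pgr, at 18.3 against 9.345 CPM (1.958, 1.148 to 3.222). Of its 22 UMIs, 16 lay in unnamed clusters, but these also held most of the retained nuclei, so no location can be read. None lay in the skeletal lineage-like nuclei, whose 38904 UMIs are too few to show a difference at this level.

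**Figure D4:**
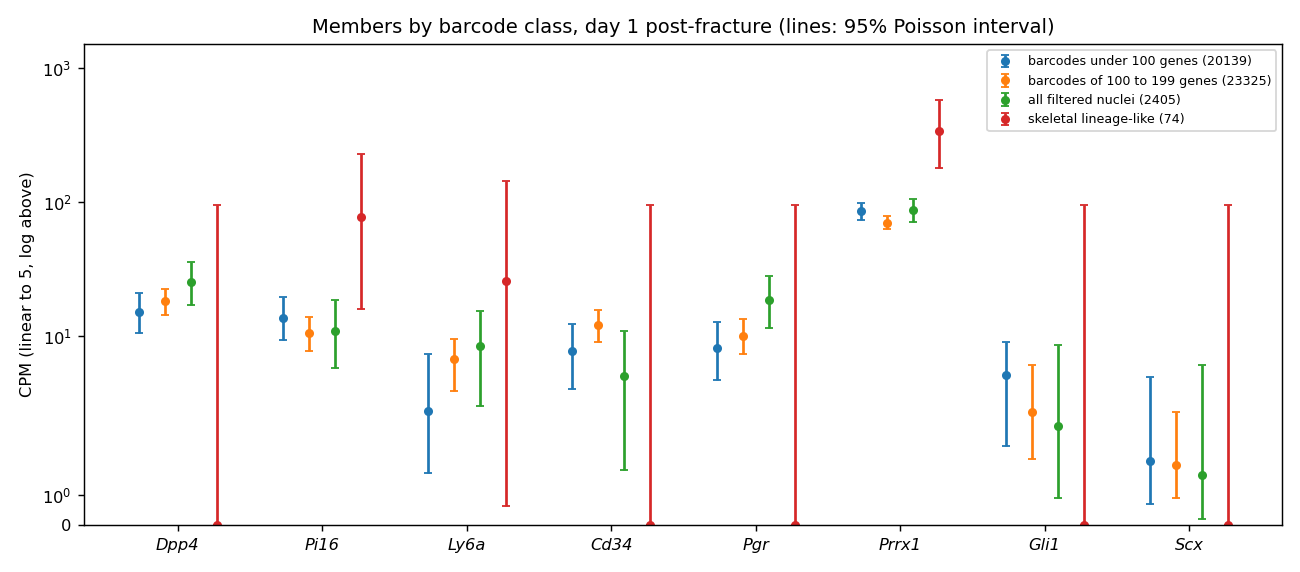
Level of the 8 genes at day 1 post-fracture in 4 classes of barcodes, in CPM on an axis that is linear to 5 and logarithmic above, with 95% Poisson intervals. Barcodes under 200 genes and all retained nuclei lie close together for most genes, and Prrx1 in the 74 skeletal lineage-like nuclei lies above them.

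Prrx1 stood above the free RNA in the 74 skeletal lineage-like nuclei, at 334.2 against 74.76 CPM (ratio 4.47, 2.364 to 7.712), from 13 UMIs in 11 nuclei. Pi16 was also higher, at 77.11 against 11.54 CPM, but from 3 UMIs (6.685, 1.35 to 20.26). Among 17936 genes, 4.01% were higher and 0.452% lower in this comparison, and 51.7% had no UMI in these nuclei, so no median ratio is given. Ly6a gave 1 UMI, and Dpp4, Cd34, Pgr, Gli1 and Scx gave none in 38904 UMIs, which allows up to 77.11 CPM for each, above their level in the free RNA, so a difference was not detectable at this depth. Myogenic-like nuclei, which should lack most of these genes, were at 102.7 CPM of Prrx1 and at 4.467 CPM of Dpp4.

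A wider mitochondrial limit of 5% gave 386 skeletal lineage-like nuclei at day 1. There Prrx1 was at 247.7 CPM (46 UMIs, ratio 3.313, 2.395 to 4.484), Pi16 at 43.07 CPM (8 UMIs, 3.734, 1.558 to 7.722) and Ly6a at 37.69 CPM (7 UMIs, 6.618, 2.498 to 14.96), all higher than in the free RNA. Dpp4 was at 32.3 CPM (6 UMIs, 1.907, 0.6857 to 4.278) and Cd34 at 10.77 CPM (2 UMIs). Pgr again gave no UMI in these nuclei, with an upper limit of 2.188 for its ratio to the free RNA. Of the other lists at the study's limit, 9 of 12 fibrogenic matrix genes and 3 of 6 tendon genes were higher than in the free RNA, and 1 of 11 Hedgehog genes, Gli3.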

How the data were processed

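Counts of 2 single-nucleus libraries were used, and each library came from 3 or 4 mice. Raw UMI counts were deposited, which the authors had made with Cell Ranger 7.0.1 from intronic and exonic reads on mm10. The labels' protocol names a human reference, but all gene identifiers are those of mouse. Nuclei were kept with 200 to 5000 genes and with mitochondrial and ribosomal shares under 0.5% and 2.5% (day 1) or 5% and 2% (MTI). They were clustered with Seurat 5.3.0 in R 4.3.3 on 2000 variable genes without the 8 genes (20 principal components and resolution 1.7 at day 1, 30 and 1.0 after MTI, 15 and 0.5 for the division of the skeletal lineage-like nuclei). A cluster was named where at least 3 markers with at least 3 UMIs each were at least 1.5-fold higher than in other nuclei, the markers together at least 2-fold, and a marker stood among the first 100 genes by fold, counting genes of 10 UMIs or more (the first 10 at low depth). Markers of chondrocytes, osteoblasts and tenocytes were pooled with those of the skeletal lineage for naming. Doublets were in effect not removed, since scrublet (scanpy 1.11.5) called 3 barcodes at day 1 and 0 after MTI.

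UMIs were summed over nuclei and expressed as CPM, computed here from the deposited counts with Python 3.11.15, numpy 2.4.6, pandas 2.3.3 and scipy 1.17.1. Sums have exact Poisson, ratios exact conditional binomial and shares exact Clopper-Pearson intervals. A group at 0 was set to 3 counts for a bound. Genes under 20 UMIs in the compared nuclei were left out of the counts over all genes and lists, except the 8. The ratio code was tested on simulated data.

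The 8 genes and all lists were chosen with earlier results of these data known, and the naming thresholds after a first clustering was seen. The genes named are the 8 in every population; up to 6 genes of a list, by UMIs or by ratio; the 3 genes most like each of the 8 with at least 20 UMIs; and the 10 highest and 5 lowest genes in nuclei with Dpp4 or Pi16. The genes read in the 4 Pgr-positive nuclei, in the Klri1-led cluster and in the nuclei with Gli1 were chosen after their values were seen. Gene positions are from the GENCODE annotation of mm10, whose release may differ from the authors'. Promoters are from RefSeq. Alternatives changed the filters, clustering, naming, gate, thinning and averaging.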

Additional observations from a re-analysis of the deposited data

Results flagged for a closer look

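The filters removed 319 barcodes of the MTI library, which enter no comparison above, and all 8 genes were found there above the level that 3 counts give (1.921 CPM). Prrx1 was at 379.6 CPM (593 UMIs), Dpp4 at 40.97 CPM (64 UMIs), Cd34 at 26.25 CPM (41 UMIs) and Ly6a at 13.44 CPM (21 UMIs). Pi16 was at 3.841 CPM (6 UMIs), and Pgr, Gli1 and Scx were each at 2.561 CPM (4 UMIs). Of these UMIs, 44 of Dpp4, 27 of Cd34, 19 of Ly6a and 388 of Prrx1 lay in 21 barcodes with more than 5000 genes, and 24 of Dpp4, 32 of Cd34 and 250 of Prrx1 in 293 barcodes with a mitochondrial share of 5% or more (a barcode can be in both groups). One of the removed barcodes (13879 UMIs, 5068 genes, 7.92% mitochondrial) held Dpp4 (2 UMIs), Pi16 (3 UMIs), Cd34 (5 UMIs) and Pgr (2 UMIs) together. With them were 15 UMIs of Prrx1, 16 of Creb5 and 13 of Sema3c, and 3 of the 4 nuclei described above also held all these genes. Unlike those nuclei, it also held 3 UMIs of Col2a1, 1 of Acan and 1 of the endothelial gene Pecam1. Barcodes of this size can hold more than 1 nucleus, which was not tested.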

How the results depend on the processing

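No paired analysis was possible because each condition has 1 library. The number of the 8 genes past the threshold, in either direction, was within 1.5 times of that reported in 6 of 9 alternatives for skeletal lineage-like over other nuclei, 7 of 10 for positive over negative nuclei, 3 of 11 for osteochondrogenic-marker negative over positive nuclei and 3 of 5 at day 1. Among the 6, removing scrublet calls could not differ, since 0 were made after MTI. Keeping the 8 genes in the clustering and resolution 0.5 gave skeletal lineage-like clusters of the same size (176 nuclei) and UMIs. These are thus not separate agreements. A like number did not mean like calls: at resolution 2.0, 2 genes were higher and 2 lower in the skeletal lineage-like nuclei, and for positive over negative nuclei 2 were higher and 1 lower both at the 0.5% limit (Cd34 0.375, Pi16 0.354) and without the Pgr-positive nuclei (Dpp4 0.386). The leave-out of the Pgr-positive nuclei or of 1 nucleus and the division by sub-clusters (8 alternatives) were chosen after seeing the data. For skeletal lineage-like over other nuclei and positive over negative nuclei, leaving out the Pgr-positive nuclei removed Dpp4 UMIs from 1 group only. The falls of the Dpp4 ratio there thus followed from the choice.

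For skeletal lineage-like over other nuclei (5 genes), the count was 2 at a mitochondrial limit of 0.5%, 3 with names given to each nucleus by its marker share and 3 without the Pgr-positive nuclei. The Pi16 ratio reversed to 0.275 at the 0.5% limit. At resolution 2.0 Dpp4 reversed to 0.16, Pi16 to 0.628 and Pgr to at most 0.589, and without the Pgr-positive nuclei Dpp4 reversed to 0.335. The Ibsp ratio in nuclei with Prrx1 reversed to 38.1 without 1 nucleus, although 43 of the 73 UMIs on the other side also came from 1 nucleus. For positive over negative nuclei (3 genes), the count was 6 with both Pdgfra and Col3a1, 6 with Pdgfra alone and 6 with groups set on thinned nuclei. For marker-negative over marker-positive nuclei (2 genes), it was 4 with both genes, 4 with Pdgfra alone, 4 in skeletal lineage-like nuclei only, 4 by sub-clusters, 1 at the 0.5% limit and 1 with thinned groups, both of a gene that was lower, so that neither Dpp4 nor Cd34 passed (0.623 and 0.801 at the limit), and 0 with the mean CPM of each nucleus or without the Pgr-positive nuclei. At day 1 (2 genes) it was 1 with a minimum of 300 genes and 1 with names given to each nucleus. The cause of these changes was not tested, except that the 0.5% limit, the leave-out and resolution 2.0 take some or all of the 4 nuclei with Pgr out of the skeletal lineage-like group. With 1 library per condition, differences between mice cannot be seen, and low counts limit most values of Scx, Ly6a and day 1.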
